A study of Mus musculus with 8 samples.

Results

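Collagens are the most abundant proteins of the extracellular matrix, and in the wall of an artery they carry the load that elastic fibres cannot bear. The collagen genes examined here are all 44 genes whose symbol has the form Col, a type number, a and a chain number, found through the RefSeq transcript that each array probe names. They were read by 64 probes, of 21368 named genes and 55681 probes on the array. RNA came from 4 samples of thoracic aorta of Fto -/- mice and 4 of Fto +/+ mice of a mixed C57BL6J/NMRI background, labelled male and on a 12 h light cycle; ages and the construction of the Fto allele are not given in the sources used here. Fto encodes a demethylase of adenosine in RNA, and the comparison asks what its absence does to expression in the vessel. Each sample was hybridised to 1 array of the same slide, and nothing in the labels says that the samples are separate animals. A p-value here therefore measures only sample-to-sample spread, which may be technical.

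A collagen chain holds long stretches in which every residue at a fixed spacing is glycine, and 3 chains wind into a triple helix. Types I, II, III, V, XI, XXIV and XXVII form banded fibrils; type IV forms the sheet of basement membranes; type VI forms beaded filaments around cells; types IX, XII, XIV, XVI and their relatives (the FACIT group) sit on the surface of other fibrils; types XIII, XVII, XXIII and XXV span the cell membrane; and types XV and XVIII, the multiplexins, are proteoglycans of the basement membrane zone. In the artery, smooth muscle cells of the media and fibroblasts of the adventitia make types I, III and V, while both endothelium and smooth muscle lay down type IV.

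A pair of chains of basement membrane, Col4a1 and Col4a2, is encoded head to head on chromosome 8. RefSeq windows from 250 bases before to 50 bases after the annotated start were available for 35 of the 44 genes (38 windows, build GRCm38.p6). The windows of Col4a1 and Col4a2 overlap by 78 bases, from 11312777 to 11312854, and are shown because the chains share this stretch and both had negative differences between the genotypes, neither past the threshold. Capitals mark the shared bases, which read as reverse complements. Col4a1 lies at chr8:11312777-11313076 on the minus strand and Col4a2 at chr8:11312555-11312854 on the plus strand.
Col4a1: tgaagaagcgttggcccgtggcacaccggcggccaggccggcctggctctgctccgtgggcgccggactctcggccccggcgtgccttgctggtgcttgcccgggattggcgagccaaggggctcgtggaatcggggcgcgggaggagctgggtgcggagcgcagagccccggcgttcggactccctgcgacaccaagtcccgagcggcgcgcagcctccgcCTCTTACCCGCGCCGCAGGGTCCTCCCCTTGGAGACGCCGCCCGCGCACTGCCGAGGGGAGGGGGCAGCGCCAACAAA
Col4a2: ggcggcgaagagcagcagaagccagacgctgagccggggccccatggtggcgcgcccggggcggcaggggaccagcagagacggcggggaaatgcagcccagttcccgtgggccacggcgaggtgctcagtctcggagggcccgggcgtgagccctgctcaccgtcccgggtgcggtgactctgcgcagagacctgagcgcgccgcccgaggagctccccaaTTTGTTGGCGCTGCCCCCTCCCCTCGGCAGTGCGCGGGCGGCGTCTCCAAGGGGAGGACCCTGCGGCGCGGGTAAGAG

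Col1a2, at chr6:4505368-4505667, and Col3a1, at chr1:45311288-45311587, both on the plus strand, encode chains of the main fibrils of the wall. Capitals mark the matches on either strand to motifs of core promoters. The CCAAT box was searched as CCAAT. The GC box, where Sp1 binds, was searched as GGGCGG. The TATA box was searched as TATAAA. No match overlapped another in these windows.
Col1a2: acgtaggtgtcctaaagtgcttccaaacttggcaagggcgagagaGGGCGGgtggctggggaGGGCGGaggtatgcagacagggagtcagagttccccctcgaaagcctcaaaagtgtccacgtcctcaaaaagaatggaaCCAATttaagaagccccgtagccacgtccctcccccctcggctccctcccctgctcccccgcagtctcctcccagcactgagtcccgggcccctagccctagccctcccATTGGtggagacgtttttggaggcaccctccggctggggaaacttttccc
Col3a1: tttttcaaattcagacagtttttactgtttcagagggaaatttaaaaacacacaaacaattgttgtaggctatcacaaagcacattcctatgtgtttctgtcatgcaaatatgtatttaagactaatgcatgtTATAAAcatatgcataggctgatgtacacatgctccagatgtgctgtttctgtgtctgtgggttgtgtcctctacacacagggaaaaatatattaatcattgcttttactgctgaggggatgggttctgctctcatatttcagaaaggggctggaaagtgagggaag
The Col1a2 window held 2 matches to CCAAT, 2 to GGGCGG and 0 to TATAAA. That of Col3a1 held 1 match to TATAAA and 0 to the others. Col4a1 and Col4a2 had 1 match to CCAAT each, with 1 and 3 to GGGCGG, and 0 to TATAAA. Over the 38 collagen windows, GGGCGG was found in 60.5%, against 35.7% of all 32851 windows of the same length. CCAAT was found in 34.2% against 37.4%, and TATAAA in 13.2% against 13.6%. These matches are letters, not binding sites, and none was tested against expression.

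Some features of the libraries bear on what follows. Levels are log2 of the processed intensity over the 75th percentile of its array, given for replicates 1 to 4 in order, and differences are Fto -/- minus Fto +/+. Well above background is the scanner software's own call for a spot. Fto itself, a check of the labels, was at -2.53, -2.19, -2.56 and -2.77 in Fto -/- samples, against 0.60, 0.85, 0.47 and 0.35 in Fto +/+ samples. It fell 8.47-fold (-3.08 ± 0.15 SE; exact two-sided permutation p = 0.0286, the smallest this design allows; -1.965 with normexp background correction), while each sample carries a description field with the opposite genotype in it. The mice are labelled male, yet both Xist probes were well above background on all 8 arrays and no probe of Ddx3y, Kdm5d or Eif2s3y was on any. All 8 smooth muscle, 7 endothelial and 8 fibroblast markers were well above background on every array. The centred level of a list is the mean over its genes of the level minus the gene's mean over the 8 arrays. For the fibroblast list it spanned -0.09 to 0.37 over Fto -/- samples and -0.76 to 0.24 over Fto +/+ samples, with Fto +/+ replicate 4 the lowest. White adipocyte markers (9 of 11 on every array, Lep on none) spanned -0.20 to 1.07 over Fto -/- samples and -1.36 to 0.59 over Fto +/+ samples. T cell markers (3 of 12 on every array) spanned -1.32 to 1.87 over Fto -/- samples and -1.80 to 1.67 over Fto +/+ samples. The mean difference was 1.47 for brown adipocyte, -0.14 for smooth muscle, 0.30 for macrophage, 0.39 for cartilage, -0.48 for skeletal and cardiac muscle and 0.38 for Schwann cell markers, and 0 genes passed in any of the 10 marker lists. The first slide row held Fto -/- replicates 1, 2 and 3 with Fto +/+ replicate 1, and the second row held the rest. In whole tissue, fewer cells of a type and less RNA per cell cannot be told apart.

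Of the 44 collagen genes, 27 met the condition for a test, a probe that 4 or more of the 8 arrays showed well above background, and 23 had one on all 8. All 6 chains of type IV and both multiplexins were among the 27, with 7 of 11 fibrillar chains, 4 of 6 chains of type VI and 4 of 9 FACIT chains. Not well above background on any array were 11 genes. These include Col2a1, Col9a1 and Col9a3, chains of cartilage. Of 8 other cartilage markers, Acan, Chad, Comp and Hapln1 were well above background on all 8 arrays, and Cnmd and Matn3 on none. The rest of the 11 are Col24a1, Col6a4, Col19a1, the transmembrane chains Col13a1, Col17a1 and Col25a1, and Col26a1 and Col28a1. The last 6 genes were measured on 1 or 2 arrays. Col10a1, the collagen of hypertrophic cartilage, had an intensity of 133.8 on the array of Fto +/+ replicate 2 and 7.31 to 17.2 on the other 7. A probe of Col6a5 was well above background in 2 Fto -/- samples (77.6 and 40.5) and in 0 of the Fto +/+ samples, where it read 9.04 to 10.8. The gene's other probe was well above background on 0 of the 8 arrays, at 6.12 to 8.72. The brightest collagen probe, of Col1a2, reached 191500, and 0 collagen spots were saturated. Probes bind with unequal strength, so brightness gives no order of abundance between chains, and none is drawn here.

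By the probe of highest mean, which stands for its gene, 1 of 27 collagen genes fell and 0 rose by limma with Benjamini-Hochberg adjustment at 0.05. By probe, 2 of 38 fell (5.26%), against 1.66% of all 25292 tested probes called in either direction, 0.842% higher and 0.814% lower. Of the 2, the Col20a1 probe met the condition for a test only through the Fto +/+ samples, so nothing is read from this share. At an unadjusted p under 0.05 were 7 of 27 genes (25.9%), against 19% of all tested probes. Of these genes 3 were higher, against 8.71% of tested probes, and 4 lower, against 10.3%. Genotypes did not overlap for 4 genes (14.8%), against 12.1% of tested probes, with 1 higher (4.74% of probes) and 3 lower (7.34%). By probe, 8 of 38 did not overlap (21.05%, against 12.1%), and 12 of 38 had an unadjusted p under 0.05 in limma (31.58%, against 19%). The share of genes without overlap is near the background, and that of probes is above it. Among the 8 probes, 1 of Col20a1 and 1 of Col6a6 entered the test only through 1 genotype, so nothing is read from the probe shares. The median difference was 0.14 over the 27 genes, against -0.04 over all 13053 tested genes, and 17 were positive and 10 negative.

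**Figure D1:**
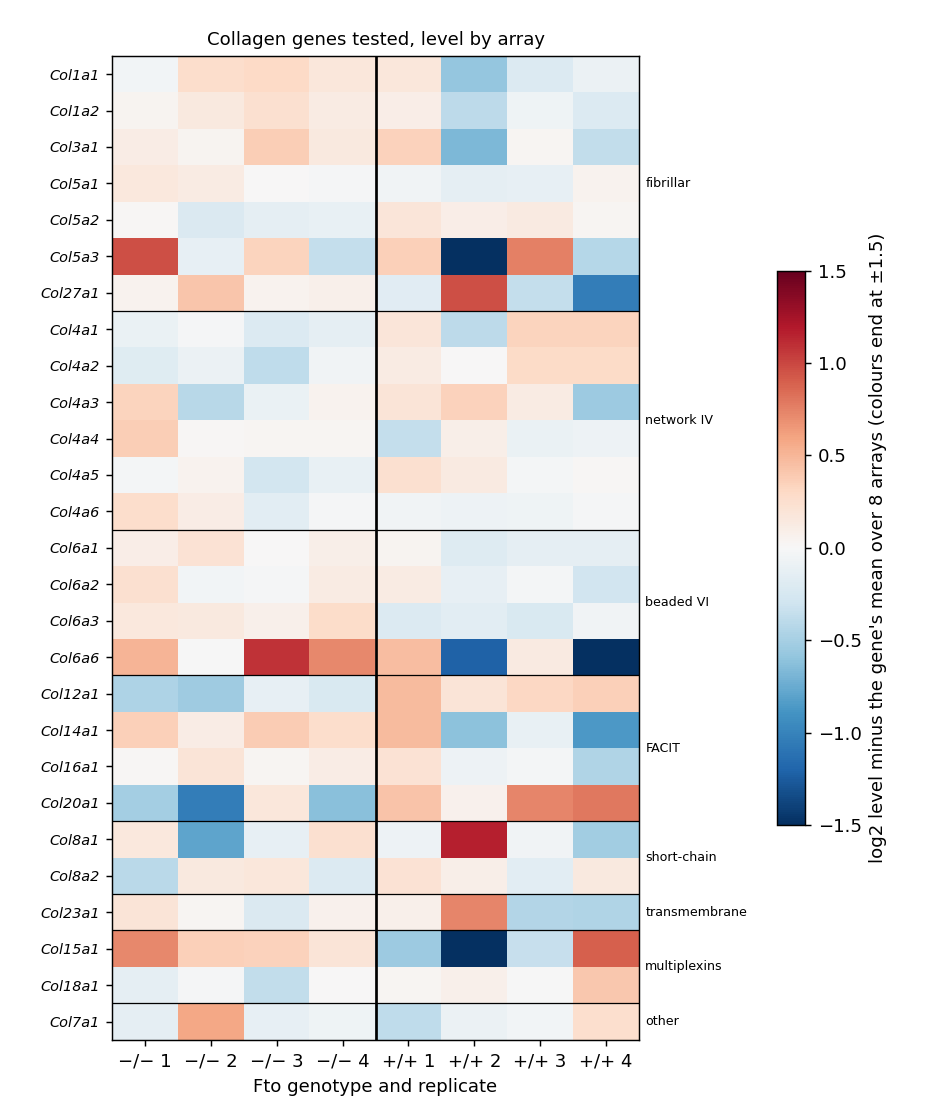
Level of the 27 tested collagen genes on each array. Rows are genes by structural group, columns are the 4 Fto -/- and then the 4 Fto +/+ arrays, and colour is the log2 level minus the gene's mean over the 8 arrays. Col12a1 is lower in every Fto -/- array, Col20a1 overlaps between genotypes, and Fto +/+ replicates 2 and 4 are low for several fibrillar and type VI genes.

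Col12a1, on chromosome 9, encodes a long FACIT chain that links fibrils in tissues under tension. It was at -1.74, -1.81, -1.40 and -1.5 in Fto -/- samples, against -0.80, -1.08, -0.97 and -0.91 in Fto +/+ samples. Every Fto -/- sample lay below every Fto +/+ sample. The gene fell 1.59-fold (-0.67 ± 0.12 SE, limma adjusted p = 0.0382). With normexp background correction the difference was smaller, at -0.41, and did not pass (adjusted p = 0.109). With slide row as a block the difference was -0.68 (adjusted p = 0.146), with -0.85 in row 1 and -0.51 in row 2 (3 arrays against 1, and 1 against 3). The call was kept only without Fto +/+ replicate 4 (adjusted p = 0.0449) among the fits that left out 1 array, which gave -0.74 to -0.61. The level of Col12a1 was -0.91 in Fto +/+ replicate 4, where the fibroblast markers were lowest, and with the level of those markers as a covariate the difference was -0.69 (adjusted p = 0.0615).

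Col20a1, on chromosome 2, encodes a FACIT chain first described in chicken. Its dimmer probe was at -5.50, -3.93, -4.35 and -4.18 in Fto -/- samples, against -2.73, -2.48, -2.43 and -2.10 in Fto +/+ samples. This probe was well above background on 4 Fto +/+ arrays and on 0 Fto -/- arrays, so it entered the test only through the Fto +/+ samples and its Fto -/- values are not measured levels. The bound for this probe was at least 2.21-fold lower in Fto -/- samples. It holds for this probe and for the scanner software's background subtraction, and is not a minimum for the gene. The adjusted p of 0.025 comes from a fit to those background values and is not independent support. The brighter probe, which stands for the gene, was at -3.57, -4.09, -2.89 and -3.69 in Fto -/- samples, against -2.63, -2.99, -2.33 and -2.27 in Fto +/+ samples. It was well above background on 1 Fto -/- and 3 Fto +/+ arrays, the genotypes overlapped, and the difference of -1.0 ± 0.26 (SE) did not pass (adjusted p = 0.0956). The dimmer probe kept its call in 3 of the 8 fits without 1 array, those without Fto -/- replicate 1, Fto -/- replicate 2 or Fto +/+ replicate 4 (adjusted p from 0.0192 to 0.0719), and with slide row as a block it differed by -1.85 (adjusted p = 0.118). With normexp background correction it differed by -0.31 (adjusted p = 0.164).

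**Figure D2:**
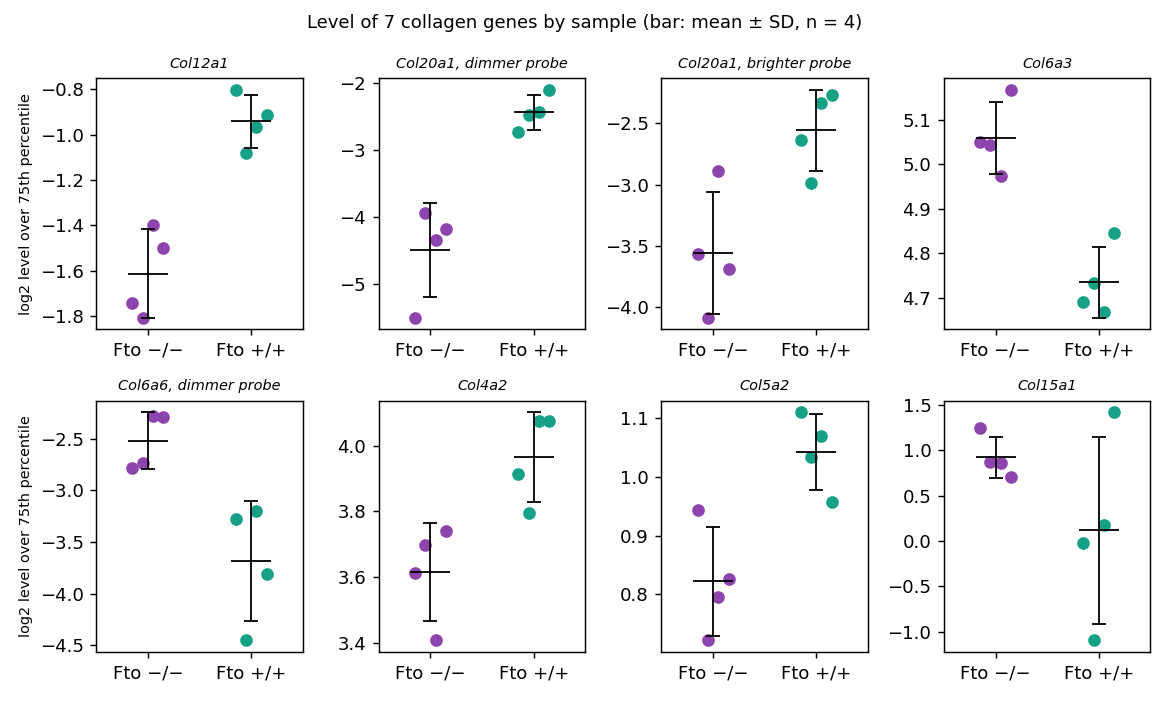
Level of 7 collagen genes in each sample. Points are samples, the horizontal bar is the mean and the whisker the SD (n = 4), and the y axis is log2 level over the array's 75th percentile. Groups do not overlap for Col12a1, the dimmer probes of Col20a1 and Col6a6, Col6a3, Col4a2 and Col5a2; they overlap for the brighter probe of Col20a1 and for Col15a1.

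The other FACIT chains measured were Col14a1, found around mature fibrils, and Col16a1. Col14a1 was at 5.29, 5.04, 5.31 and 5.19 in Fto -/- samples, against 5.41, 4.32, 4.82 and 4.07 in Fto +/+ samples. The Fto -/- values lay close together, and Fto +/+ replicates 2 and 4 were low while replicate 1 was the highest of all 8. The difference of 0.55 ± 0.26 (SE) did not pass (adjusted p = 0.296). It was -0.19 within slide row 1 and 0.79 within row 2. Without Fto +/+ replicate 4 it was 0.36, and with the fibroblast level as a covariate 0.24. A second probe gave 0.44. Col16a1 differed by 0.17 ± 0.14 (SE, adjusted p = 0.546) and its other tested probe by 0.10.

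Among fibrillar chains, 0 of 7 passed in limma, with 6 positive and 1 negative and 2 at an unadjusted p under 0.05 (Col1a2 and Col5a2). Col1a1, which gives the larger share of type I collagen, was at 6.67, 6.96, 7.0 and 6.87 in Fto -/- samples, against 6.87, 6.12, 6.50 and 6.61 in Fto +/+ samples. Col1a2, its partner chain, was at 8.93, 9.04, 9.14 and 9.03 in Fto -/- samples, against 9.0, 8.51, 8.83 and 8.70 in Fto +/+ samples. Col3a1, the chain of type III collagen, whose loss in humans weakens arteries, was at 7.18, 7.12, 7.44 and 7.22 in Fto -/- samples, against 7.42, 6.40, 7.10 and 6.71 in Fto +/+ samples. In all 3 genes Fto +/+ replicate 2 was the lowest sample and Fto +/+ replicate 1 lay among the Fto -/- values, so the groups overlapped. The differences were 0.35 ± 0.16, 0.28 ± 0.12 and 0.34 ± 0.21 (SE; adjusted p = 0.286, 0.257 and 0.414). Within slide row 1 they were 0.0048, 0.04 and -0.17, and within row 2 they were 0.46, 0.35 and 0.49. Without Fto +/+ replicate 2 the 3 differences were 0.22, 0.19 and 0.17, and without Fto +/+ replicate 1 that of Col3a1 was 0.51. Fto +/+ replicate 2 also had the lowest white adipocyte level (-1.36), a fibroblast level of -0.25 and a T cell level of 1.67. Each of these 3 levels was a covariate in an alternative fit. Col1a1, Col1a2 and Col3a1 passed in none of those fits. They did not pass without a covariate either, so this says nothing of cell content. Whether cell content caused the collagen values was not tested.

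Type V collagen sets fibril diameter from inside the fibril. Col5a1 was at 3.88, 3.85, 3.74 and 3.71 in Fto -/- samples, against 3.67, 3.59, 3.60 and 3.77 in Fto +/+ samples. Col5a2 was at 0.94, 0.72, 0.80 and 0.83 in Fto -/- samples, against 1.11, 1.03, 1.07 and 0.96 in Fto +/+ samples. Col5a1 overlapped between the genotypes (0.14 ± 0.09 SE, adjusted p = 0.439), while every Fto -/- sample was below every Fto +/+ sample for Col5a2 (-0.22 ± 0.09 SE, adjusted p = 0.227). Neither passed. The log2 ratio of Col5a1 to Col5a2 within an array, centred over the 8 arrays, was 0.14, 0.34, 0.15 and 0.09 in Fto -/- samples, against -0.23, -0.24, -0.27 and 0.02 in Fto +/+ samples. These chains belong to the same trimer, and their ratio did not overlap between genotypes; the ratio was looked at after the values were seen and is given without a test. Of 9 such ratios between chains, 2 did not overlap and 7 did. The share without overlap was not computed for ratios of other genes, so nothing is read from this count. The ratio of Col1a1 to Col1a2 overlapped, at -0.07 to 0.12 over Fto -/- samples and -0.19 to 0.11 over Fto +/+ samples. Col5a3 spanned 0.05 to 1.37 over Fto -/- samples and -1.10 to 1.15 over Fto +/+ samples (0.41 ± 0.49 SE). Col27a1, well above background in 4 Fto -/- and 3 Fto +/+ samples, differed by 0.30 ± 0.36 (SE).

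Of the 6 chains of type IV collagen, 0 passed in limma and 1, Col4a2, had an unadjusted p under 0.05. Col4a1 was at 4.54, 4.62, 4.43 and 4.50 in Fto -/- samples, against 4.81, 4.25, 4.96 and 4.97 in Fto +/+ samples. Col4a2 was at 3.61, 3.70, 3.41 and 3.74 in Fto -/- samples, against 3.91, 3.79, 4.08 and 4.08 in Fto +/+ samples. All 4 Fto -/- samples lay below the lowest Fto +/+ sample for Col4a2 (-0.35 ± 0.11 SE, adjusted p = 0.151). Col4a1 differed by -0.23 ± 0.16 (SE, adjusted p = 0.481) and overlapped through Fto +/+ replicate 2, the lowest of all 8. Without that sample the Col4a1 difference was -0.39 (adjusted p = 0.133). The endothelial marker list had a centred level of -0.45 to 0.23 over Fto -/- samples and of -0.09 to 0.42 over Fto +/+ samples, with 0 of its 7 genes past the threshold; its part in the type IV values was not tested.

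The genes of the other type IV trimers lie in head-to-head pairs as well: Col4a3 with Col4a4 on chromosome 1 and Col4a5 with Col4a6 on the X chromosome. Col4a4 differed by 0.22, 0.29 and 0.65 in its 3 tested probes, and Col4a6 by 0.11 and 0.26 in its 2. For the second probe of each, every Fto -/- sample was above every Fto +/+ sample (adjusted p = 0.18 and 0.178). Col4a5 differed by -0.18 ± 0.11 (SE, adjusted p = 0.388) and Col4a3 by -0.06 ± 0.22 (SE, adjusted p = 0.915). The centred log2 ratio of Col4a5 to Col4a6 did not overlap, at -0.30 to -0.06 over Fto -/- samples and 0.03 to 0.29 over Fto +/+ samples. That of Col4a1 to Col4a2 overlapped, at -0.09 to 0.17 in Fto -/- and -0.39 to 0.05 in Fto +/+ samples. These ratios too were chosen after the values were seen.

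Type VI chains all had positive differences, and 0 of 4 tested genes passed, with 2 at an unadjusted p under 0.05. Col6a3, the longest chain of its usual trimer, was at 5.05, 5.04, 4.97 and 5.17 in Fto -/- samples, against 4.69, 4.73, 4.67 and 4.85 in Fto +/+ samples. Every Fto -/- sample was above every Fto +/+ sample, by 0.32 ± 0.09 (SE, adjusted p = 0.107). The difference was 0.33 within slide row 1 and 0.42 within row 2, and it passed with array weights (0.37, adjusted p = 0.0337). Col6a1 was at 6.18, 6.29, 6.09 and 6.16 in Fto -/- samples, against 6.12, 5.89, 5.95 and 5.94 in Fto +/+ samples. Col6a2 was at 3.86, 3.58, 3.60 and 3.74 in Fto -/- samples, against 3.74, 3.49, 3.59 and 3.33 in Fto +/+ samples. Their ranges overlapped between genotypes, with differences of 0.21 ± 0.09 and 0.16 ± 0.12 (SE, adjusted p = 0.273 and 0.495). The Col6a2 difference was 0.10 without Fto -/- replicate 1 and 0.088 without Fto +/+ replicate 4.

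Col6a6, a chain that can take the place of Col6a3 in the trimer, was dim. Its brighter probe was at -2.13, -2.65, -1.56 and -1.92 in Fto -/- samples, against -2.18, -3.86, -2.51 and -4.33 in Fto +/+ samples. It was well above background on 4 Fto -/- and 2 Fto +/+ arrays and overlapped (1.15 ± 0.48 SE, adjusted p = 0.241). Within slide row 1 it differed by 0.063 and within row 2 by 1.64. The dimmer probe was at -2.78, -2.73, -2.28 and -2.29 in Fto -/- samples, against -3.28, -4.45, -3.20 and -3.81 in Fto +/+ samples. That probe was well above background on 4 Fto -/- arrays and 0 Fto +/+ arrays, a bound of at least 1.67-fold higher in Fto -/- samples, and it entered the test only through the Fto -/- samples (adjusted p = 0.0812, from a fit to Fto +/+ values at background). Fto +/+ replicates 2 and 4, low for Col6a6, were also low for the fibroblast list, and with that level as a covariate the brighter probe differed by 0.52. With it the dimmer probe, whose Fto +/+ values lie at background, differed by 0.96. That covariate was chosen after the data were seen, and whether fibroblast content caused the Col6a6 values was not tested.

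**Figure D3:**
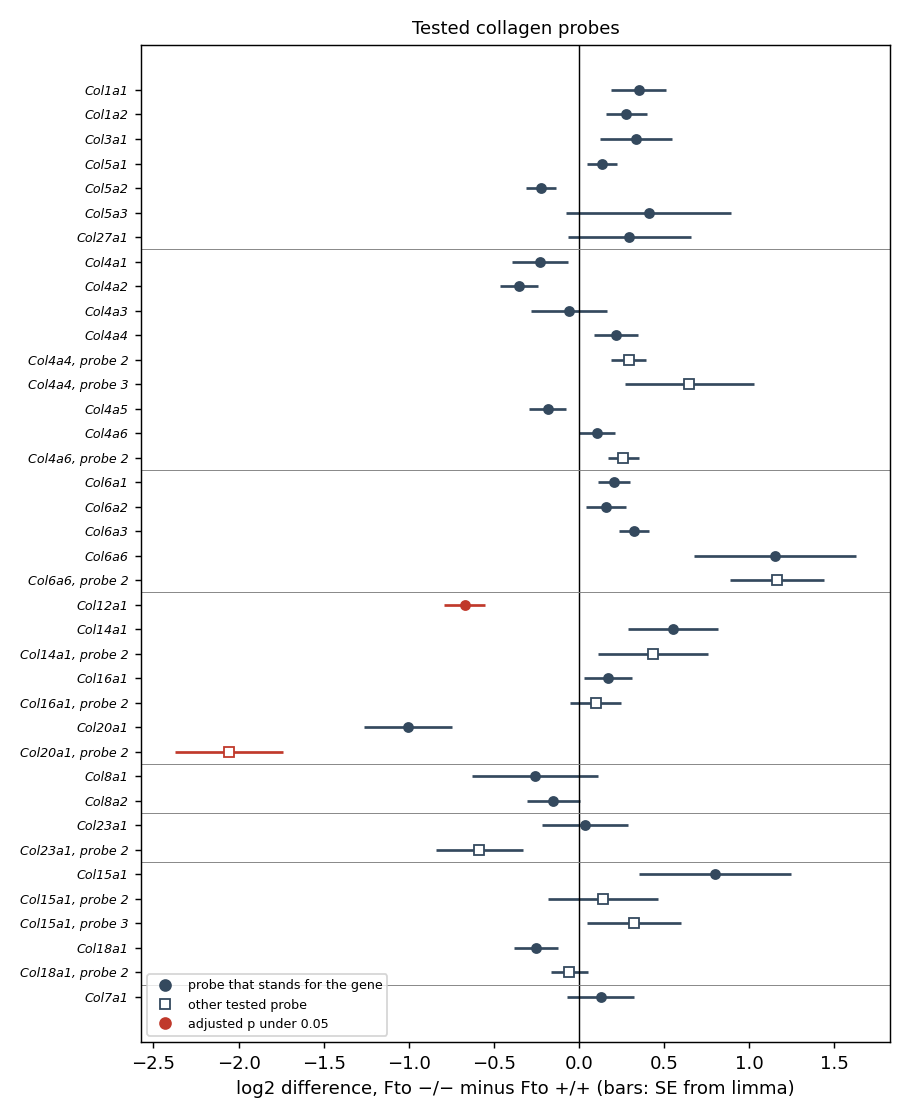
Difference between genotypes for the 38 tested collagen probes. The x axis is log2 Fto -/- minus Fto +/+ with SE from limma; circles are probes that stand for a gene, squares the other tested probes, and red marks an adjusted p under 0.05. Only Col12a1 and the second Col20a1 probe are red, at -0.67 and -2.05.

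Of the remaining 6 genes, 0 passed in limma, and 0 had an unadjusted p under 0.05 by the probe that stands for the gene. Col15a1, a multiplexin of the zone between basement membrane and fibrils, was at 1.24, 0.87, 0.86 and 0.71 in Fto -/- samples, against -0.03, -1.09, 0.18 and 1.42 in Fto +/+ samples. Its Fto +/+ values spanned those of the Fto -/- samples, from Fto +/+ replicate 2 to replicate 4 (0.80 ± 0.45 SE, adjusted p = 0.366). Without Fto +/+ replicate 2 the difference was 0.40 and without Fto +/+ replicate 4 it was 1.23. Its other probes differed by 0.14 and 0.32. Col18a1, whose end fragment is endostatin, was at 6.72, 6.83, 6.48 and 6.85 in Fto -/- samples, against 6.88, 6.93, 6.84 and 7.25 in Fto +/+ samples. It differed by -0.25 ± 0.13 (SE, adjusted p = 0.323), and by -0.06 in its other probe, and overlapped in both. Without Fto +/+ replicate 4 the first difference was -0.16. Col8a1, a short chain that smooth muscle makes in injured arteries, was at -1.95, -2.91, -2.23 and -1.87 in Fto -/- samples, against -2.19, -0.95, -2.17 and -2.63 in Fto +/+ samples. Fto +/+ replicate 2 was high for it, and the difference changed sign without that sample (-0.26 with all samples, 0.09 without). Col8a2 differed by -0.15, Col7a1, the anchoring fibril chain, by 0.13, and Col23a1 by 0.04 and -0.58 in its probes (unadjusted p = 0.893 and 0.0499 in limma), the only one of 9 genes with several tested probes in which their signs differed.

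The SD of a gene was larger in Fto +/+ than in Fto -/- samples for 18 of 27 genes, with a median SD of 0.169 in Fto -/- and 0.262 in Fto +/+ samples. Fto +/+ replicate 2 was the lowest of all 8 samples for 8 genes and Fto +/+ replicate 4 for 7. The same samples were the highest of all 8 for 4 genes and 5 genes. The mean centred level of the fibrillar genes was 0.18, 0.09, 0.17 and 0.01 in Fto -/- samples, against 0.13, -0.32, 0.02 and -0.29 in Fto +/+ samples. That of type VI was 0.25, 0.08, 0.29 and 0.30 in Fto -/- samples, against 0.11, -0.42, -0.06 and -0.54 in Fto +/+ samples. The type IV mean did not show the 2 low Fto +/+ samples, with 0.11, -0.05, -0.18 and -0.04 in Fto -/- samples, against 0.06, 0.02, 0.09 and -0.0003 in Fto +/+ samples. Single chains did: Fto +/+ replicate 2 was the lowest of all 8 for Col4a1 and the highest for Col4a3, and replicate 4 was the reverse.

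**Figure D4:**
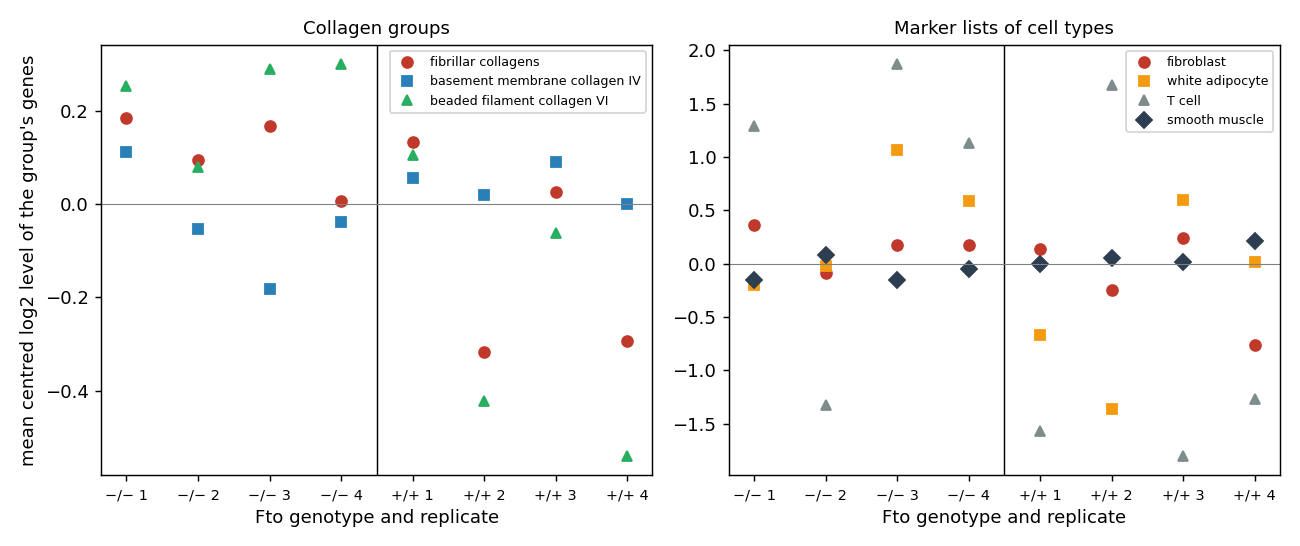
Mean centred log2 level of 3 collagen groups (left) and of 4 marker lists (right) on each array, Fto -/- before Fto +/+. Fto +/+ replicates 2 and 4 are low for fibrillar (-0.32 and -0.29) and type VI collagens (-0.42 and -0.54), and the fibroblast list is lowest in replicate 4 (-0.76).

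The machinery that makes, secretes, crosslinks and senses collagen was covered by 60 further genes in 5 lists, of which 54 were tested. By limma 0 rose and 0 fell, and 3 higher and 5 lower had an unadjusted p under 0.05 (14.8%, against 19% of all tested probes). The list for hydroxylation and glycosylation of collagen chains, not all of whose genes encode enzymes of those steps, had 14 tested genes. Those of smallest p were the prolyl isomerase gene Ppib (0.14 ± 0.10 SE) and the lysyl hydroxylase gene Plod1 (-0.17 ± 0.15 SE), and the list's median was 0.02. Of 10 folding and secretion genes, the coat protein gene Sec23a differed by -0.31 ± 0.14 and the chaperone gene Fkbp10 by 0.21 ± 0.11 (SE). In the same list Sparc differed by 0.17 in the probe that stands for it (limma adjusted p = 0.348). Its other probes differed by 0.72, without overlap between genotypes, and by 0.07 (adjusted p = 0.052 and 0.774). The procollagen processing and crosslinking list had 2 of 10 genes at an unadjusted p under 0.05 in limma (20%, against 19% of all tested probes). These were the lysyl oxidase relatives Loxl2 (-0.51 ± 0.16 SE, adjusted p = 0.146) and Loxl3 (-0.26 ± 0.10 SE, adjusted p = 0.229). The other tested genes of that family differed by -0.15 (Lox), -0.04 (Loxl1) and 0.52 (Loxl4), and none passed. Loxl2 was at 2.20, 2.64, 2.50 and 2.22 in Fto -/- samples, against 2.81, 2.58, 3.02 and 3.19 in Fto +/+ samples, and overlapped. Of 8 collagen receptor genes, Ddr1, a receptor kinase for collagen, differed by -0.33 ± 0.12 and the uptake receptor gene Mrc2 by 0.23 ± 0.11 (SE). Among 12 fibril partners, the fibronectin gene Fn1 differed by -0.45 ± 0.11 (SE, adjusted p = 0.0879) and the periostin gene Postn by 0.36 ± 0.10 (SE, adjusted p = 0.117). Neither overlapped between genotypes, and they were the 2 of 12 partner genes without overlap (16.7%, against 12.1% of tested probes). Over all 5 lists 4 of 54 genes did not overlap (7.41%). In the partner list 3 higher and 2 lower had an unadjusted p under 0.05 in limma (41.7%, against 19%). The lists were chosen with earlier results known, so nothing is read from these shares. The list medians were 0.04 for folding, -0.03 for processing, 0.15 for receptors and 0.10 for partners.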

How the data were processed

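RNA of 8 samples of thoracic aorta was read on Agilent SurePrint G3 mouse arrays with 1 dye, per the labels' protocols. The scanner intensity values were deposited as the scanner software, Feature Extraction 11.0.1.1, made them per the file headers, with background subtracted and no scaling between arrays. A deposited table of the series gives log2 levels with each probe's median set to 0; against differences from the scanner values it had slopes of 0.958 to 1.01 and correlations of 0.983 to 0.997 over 22233 probes. Its column medians were -0.00954 to 0.0048 and how it was normalised remains unknown here.

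The 3671 control spots per array were left out and 126 to 189 outlier spots per array set to missing, none of them of a collagen probe. Spots of a probe were averaged, and log2 intensity minus the array's 75th percentile (294.9 to 415.6) was used. Probes were named through RefSeq transcripts of a GRCm38.p6 gene table (28331 of 55681 probes, 50.9%); the arrays are annotated on mm9, so coordinates are given only for the RefSeq windows. The 25292 probes well above background on at least 4 arrays were fitted with limma 3.58.1 in R 4.3.3, with adjustment over all of them. A bound sets the mean of the brighter genotype against, per dim array, the higher of the probe's level and the lowest level well above background. The number of arrays limits precision. Collagen genes, lists and alternatives were chosen with earlier results of these data known. Levels in every sample are given for genes past the threshold, those at an unadjusted p under 0.05 and 15 chains listed by name; of each list, the 2 genes of smallest p. Ratios of chains, dimmer probes, Col5a3 and Sparc were added after seeing values. Alternatives were normexp (offset 50, on the spot and background medians, since the planned mean signal was not used here), quantile normalisation, the deposited table, other filters, blocks, covariates, array weights and leaving out each array. The fit was tested on simulated data. The labels give no pairing, though same-numbered samples share a slide row (1 and 4) or column (2 and 3); their deviations correlated at 0.155, -0.0234, -0.0188 and -0.0407. Slide row and column were tested as batches; slide and scan date were common to all arrays.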

Additional observations from a re-analysis of the deposited data

Results flagged for a closer look

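A sample was set apart when its gap to the nearest of the other 3 divided by its genotype's whole range exceeded Dixon's critical value for 4 samples. Of 54 groups of 4 looked at (27 genes, both genotypes), 3 had such a sample; chance alone flags about 1 in 20 groups. Col27a1 was at -1.48 in Fto -/- replicate 2, against -1.85 to -1.83 in the other Fto -/- samples. Col4a4 was at 1.51 in Fto -/- replicate 1, against 1.15 to 1.16 in the others. Col7a1 was at 0.24 in Fto -/- replicate 2, against -0.47 to -0.39 in the others. In the Fto +/+ samples 0 genes met the limit.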

How the results depend on the processing

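Collagen genes that fell numbered 1, and 0 with normexp, without the filter on dim probes, with slide row, slide column or replicate number as a block, within slide row 1, within slide row 2, and with white adipocyte, T cell or fibroblast level as a covariate; 2 fell with probes averaged, and leaving out 1 array gave 0 to 1. Collagen probes that fell numbered 2, and 0 with normexp, no filter, row or column block, within either row, and with the white adipocyte or T cell covariate, 1 with the all-array filter, the replicate block and the fibroblast covariate, and 0 to 2 leaving out 1 array. With array weights 1 collagen gene and 2 collagen probes rose and 1 pathway gene fell; normexp gave 1 probe higher; leaving out 1 array gave 0 to 1 pathway genes lower. All tested probes gave 213 higher and 206 lower, against 61 and 35 without the filter, 33 and 13 with the row block, 0 and 0 within row 1, 1 and 0 within row 2, 777 and 847 with array weights, 37 and 12 with the white adipocyte covariate, 75 and 53 with the T cell covariate, 0 and 2 with the column block, and 55 to 499 and 46 to 387 leaving out 1 array. The replicate block gave 90 and 42; the labels give no pairing by number. The collagen median of 0.14 was -0.073 within row 1, 0.044 with the fibroblast covariate and 0.09 to 0.19 leaving out 1 array. Fto differed by -1.965 with normexp, -3.02 within row 1 and -3.33 within row 2, where 0 and 1 probes passed in all, and by -3.19 to -2.99 leaving out 1 array. Signs turned for Col14a1 (-0.19), Col3a1 (-0.17) and Col6a2 (-0.057) within row 1, and for Col8a1 within row 2 (0.043), with the white adipocyte covariate (0.014) and without Fto +/+ replicate 2 (0.088); leaving out 1 array gave -0.48 to 0.088 for it. Of 475 alternative values of single genes and probes, 435 kept direction and side of the threshold, 30 lost the call, 4 gained it and 6 turned. Only Col12a1 and the dimmer Col20a1 probe had a call to lose. They lost it in 17 of 23 and 13 of 21 alternatives, so the 435 are mostly genes and probes that were never called. Quantile normalisation and the authors' table kept the call of Col12a1 and that of the dimmer Col20a1 probe. That probe entered the test only through the Fto +/+ samples, so its call in any fit is not independent support. Fibroblast covariate and column block were chosen after seeing the data. Causes were not tested. Dim probes (Col20a1, Col6a6) are limited by signal over background, and Col12a1 was read by 1 probe below the 75th percentile of every array.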

Other observations

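Some collagen probes that did not enter the tests gave signal on single arrays. Col11a1, a cartilage fibril chain, read 58.4 on the array of Fto +/+ replicate 4 and 6.23 to 8.82 on the other 7. Col11a2 read 71.6 on the array of Fto -/- replicate 2, where it was well above background, and 16.3 to 49.9 elsewhere. Col22a1, a chain of junctions between muscle and tendon, was well above background in 1 Fto -/- sample (39.6) and 1 Fto +/+ sample (65.8). Col9a2 was well above background in 2 Fto -/- samples (38.6 and 33.3) and 0 Fto +/+ samples, where it read 22.7 to 28.9. Of 8 cartilage markers, 4 were well above background on all 8 arrays and 2 on none.

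Uty, a Y-linked gene, was well above background on 1 array, that of Fto +/+ replicate 3, by 1 of its 2 probes (highest intensity 207.8).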
